A study of Saccharomyces cerevisiae with 83 samples.

Results

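The yeast cell wall genes examined here are FKS1 (YLR342W), GSC2 (YGR032W) and FKS3 (YMR306W) of the glucan synthase family, RHO1 (YPR165W) and GAS1 (YMR307W), which act with glucan synthase, and the chitin synthase genes CHS1 (YNL192W), CHS2 (YBR038W) and CHS3 (YBR023C). These 8 genes were picked by systematic name because of what they encode. Of them, 7 had an entry in both deposited tables of plasmid barcode counts, out of 4871 gene entries per table, and CHS3 is not analysed here. By systematic name they lie on 6 chromosomes: FKS1 on XII, GSC2 on VII, CHS1 on XIV, CHS2 on II, RHO1 on XVI, and FKS3 and GAS1 next to each other on XIII.

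The wall of Saccharomyces cerevisiae is a mesh of long β-glucan chains with a small amount of chitin, covered by mannoproteins. Glucan synthase sits in the plasma membrane with Fks1 or Gsc2 (also called Fks2) as its catalytic subunit and the small GTPase Rho1 as its regulatory subunit. Fks1 serves growing cells, Gsc2 is induced by stress and starvation and helps to build the spore wall, and Fks3 is a relative that acts in spore wall formation. Gas1, anchored at the cell surface, lengthens the glucan chains. Chs2 lays down the primary septum at cytokinesis, Chs1 repairs the wall when daughter cells separate, and Chs3 makes most of the chitin of the bud neck and lateral wall.

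The study grew pools of haploid YPS1009 cells, a North American strain background, in which each cell carried 1 barcoded gene on a centromeric plasmid, a type kept at low copy number. The design lists a euploid and strains with an extra chromosome IV, VII, XII or XV, each with or without the RNA-binding protein Ssd1. All pools grew in histidine-free synthetic medium with nourseothricin, which selects for the extra chromosomes, and G418, which selects for the plasmid. The labels give strain numbers (AGY1611 and so on) without a karyotype or an SSD1 state, so the strains are named by number and no change can be tied to either. Batch 1 holds 32 libraries from AGY1611, AGY1612, AGY1613 and AGY1614, each with replicates A to D at generations 0 and 10. Batch 2 holds 51 libraries with replicates 1 to 3. Samples at generations 0, 5 and 10 exist for AGY1611, AGY1613 and AGY1860, and at 0 and 5 for AGY1861. The other 3 strains, AGY1859, AGY1862 and AGY1863, have samples from the start and from generation 10. The values are barcode counts in plasmid DNA, so they measure the share of cells (and plasmids) that carry a gene, not its expression. Fewer carrier cells and fewer plasmids per cell cannot be told apart.

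A batch 1 library held 3237303 to 8351355 counts at the start and 457053 to 2993246 after 10 generations. The batch 2 libraries held 1298424 to 7559499, 452054 to 5409233 and 561486 to 3506174 counts at their 3 sampling points. The design text gives 2 transformations behind the 4 replicates of a batch 1 strain and 3 behind the 3 replicates of a batch 2 strain, and does not say which replicate came from which. Across 4547 genes, culture A changed much as B did and C much as D did, with a mean Spearman correlation of 0.936 (8 pairs), against 0.486 across these couples (16 pairs). Replicates 2 and 3 of AGY1611 and AGY1613 in batch 2 resembled A and B, and C and D, of batch 1 at 0.941 (8 pairs). The batches are therefore not separate evidence for these strains. For batch 1, each member's result below is also given with the libraries of A added to those of B, and C to D ("summed cultures"), where that ends a call. In that setting 419 to 1230 of the 4615 genes were called per strain, and 3 to 110 for each difference between strains. P-values measure only the spread between these libraries, part of which may be technical. An alternative fit, the replicate block, pairs libraries by replicate number. That pairing held up only in AGY1859, AGY1860 and AGY1863, and in no strain of batch 1.

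A gene's level is given in CPM, the count divided by the scaled library total and multiplied by 1000000. A change is the log2 ratio of a later generation to generation 0 fitted by edgeR, measured against the rest of the pool. It is described as called, or as a rise or fall, when the Benjamini-Hochberg adjusted p over all genes tested was under 0.05. At generation 0 the 7 barcodes differed widely in abundance. In batch 1, GAS1 had a mean of 3232 counts per library, above 96.4% of gene entries. RHO1 followed with 1308 counts and CHS2 with 958, both near the middle of the pool. GSC2 had 408 counts, FKS3 61.6, CHS1 24.9 and FKS1 5.13, the last above only 4.13% of entries. The order was the same in batch 2. Counts this low limit what can be said of FKS1 and CHS1 at generation 10, where libraries were shallower.

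**Figure D1:**
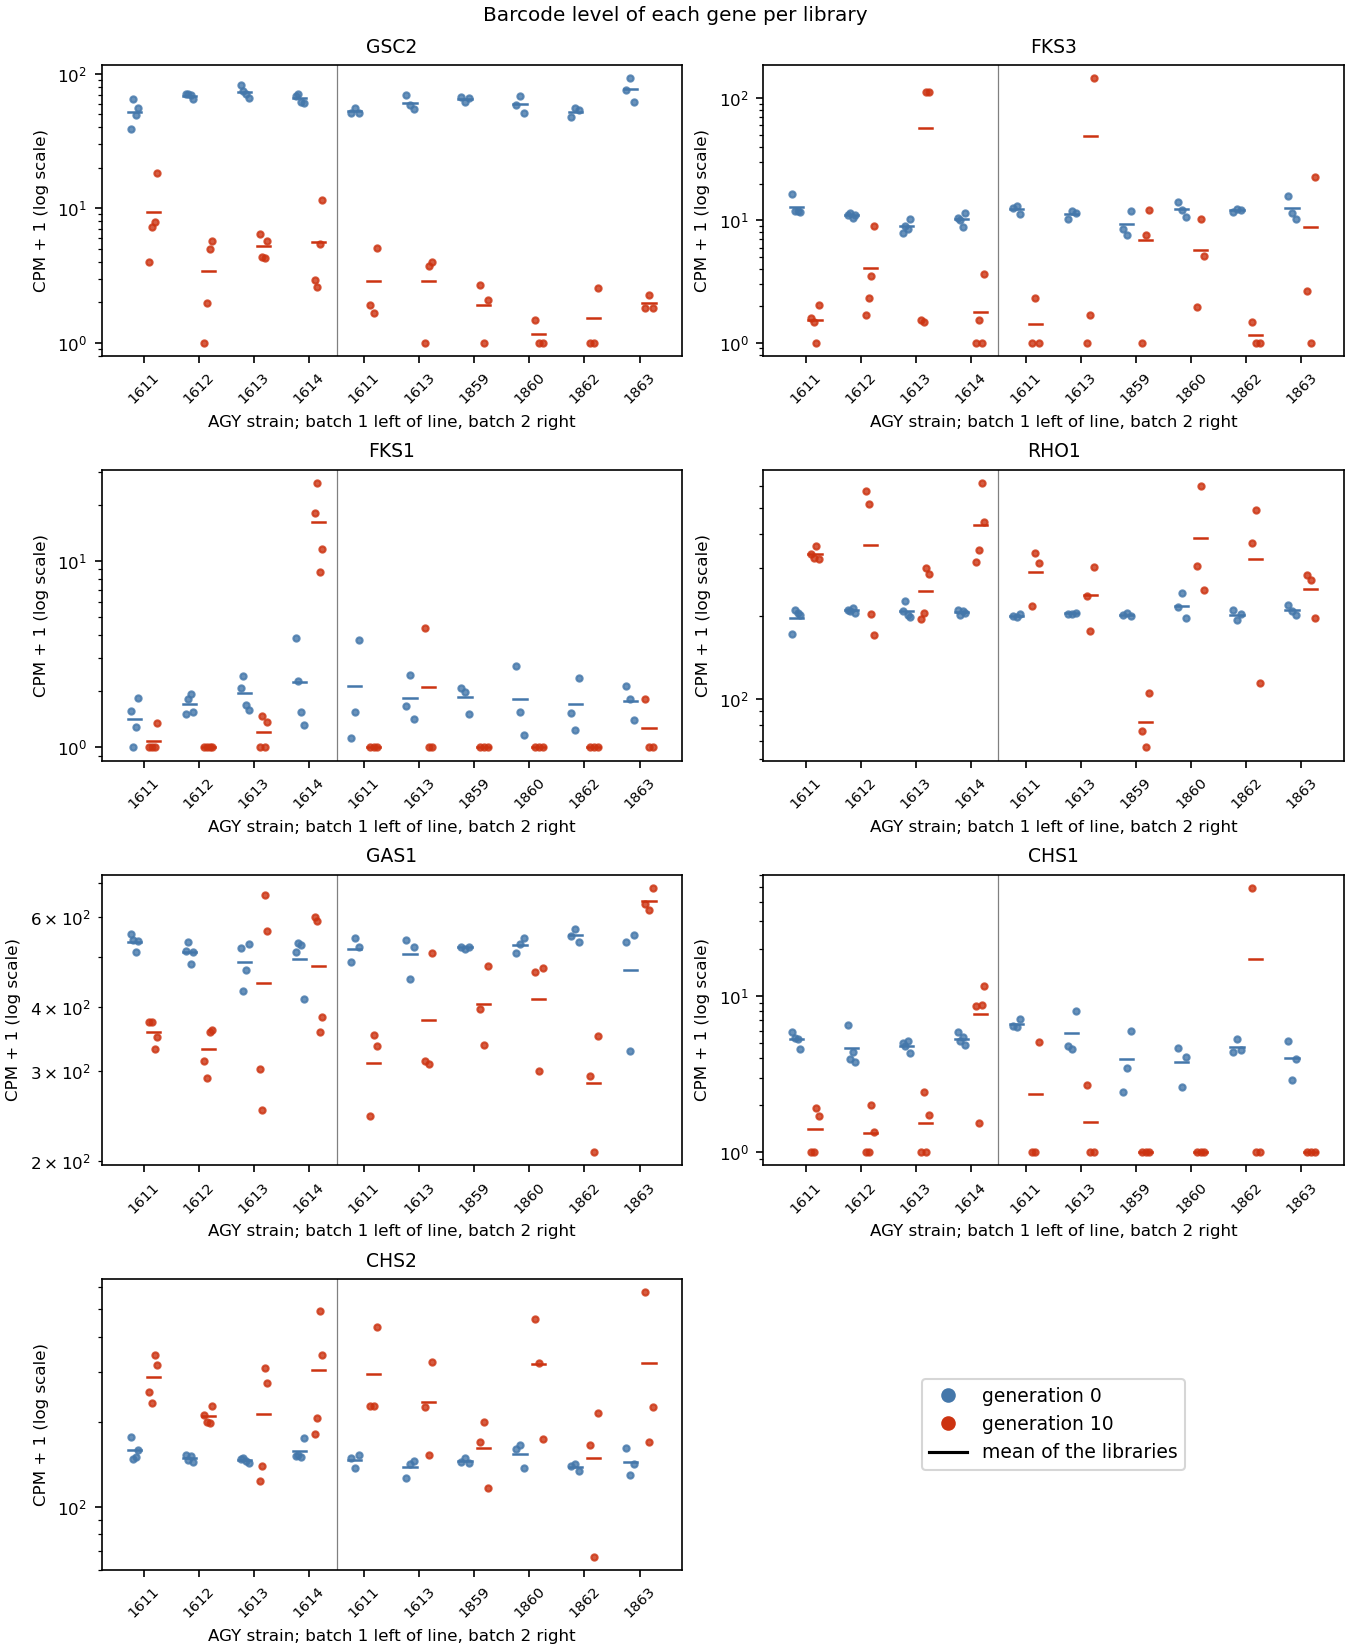
Barcode level (CPM plus 1, log axis) of the 7 genes in every library at generation 0 (blue) and generation 10 (red), by strain, with batch 1 left of the vertical line and batch 2 right of it; bars are means of 4 libraries in batch 1 and 3 in batch 2. GSC2 lies below its generation 0 level in all 10 comparisons, whereas FKS3 in AGY1613 and CHS1 in AGY1862 hold cultures far above the others of their strain.

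After 10 generations the pattern differed by gene. GSC2 fell in all 4 strains of batch 1 and all 6 of batch 2. CHS1 fell in 6 of the 10 comparisons, GAS1 in 4 and FKS3 in 3, while FKS3 rose in 1. CHS2 rose in 5 of 10, and RHO1 rose in 3 and fell in 1. FKS1 entered the test in batch 1 only, for a reason given with its values, and is left out of the following counts. In batch 1, 6 of 6 members were called in AGY1611 (47.8% of all 4615 genes tested), 4 in AGY1612 (43.1%), 3 in AGY1613 (40.8%) and 4 in AGY1614 (53.1%). The batch 2 counts of 6 members were 3 in AGY1611 (18.9% of all 4579 genes tested), 1 in AGY1613 (11.4%), 3 in AGY1859 (14.5%), 3 in AGY1860 (21%), 3 in AGY1862 (18.2%) and 3 in AGY1863 (17.5%). By direction, 21.3% to 28.3% of all genes per strain were called lower and 17.1% to 24.8% higher in batch 1, and 7.01% to 14.7% lower and 4.04% to 7.62% higher in batch 2. The median change of the 6 members ran from -1.58 in AGY1611 to 0.20 in AGY1614 in batch 1, where the median of all genes ran from 0.03 to 0.09. The corresponding median in batch 2 ran from -1.39 in AGY1611 to -0.10 in AGY1613, with 0.01 to 0.04 for all genes.

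**Figure D2:**
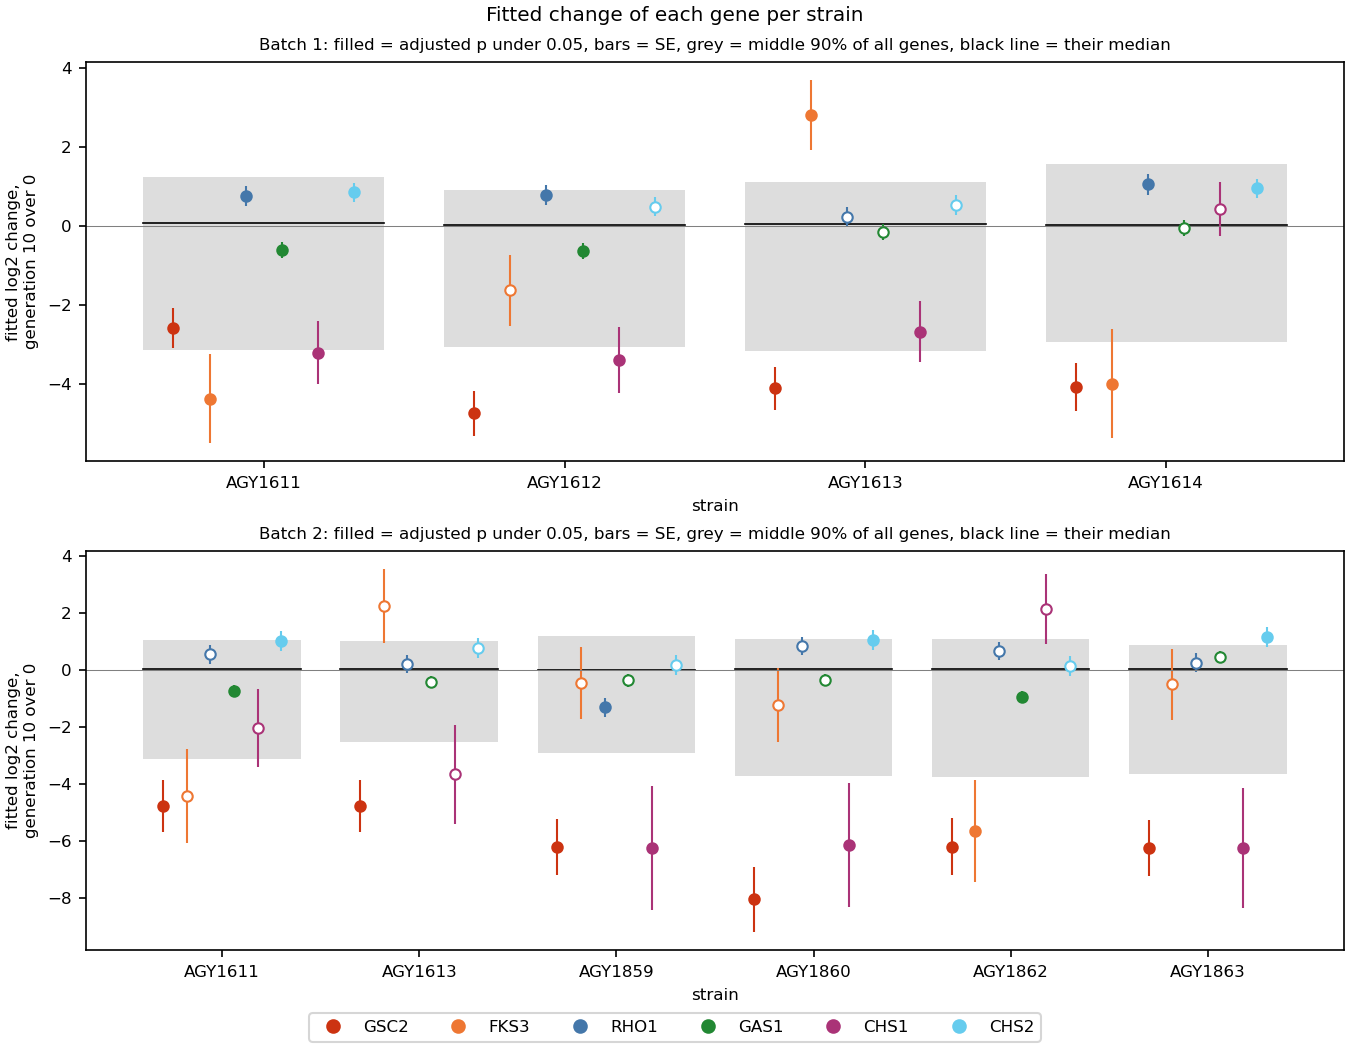
Fitted log2 change from generation 0 to generation 10 of 6 genes in each strain of batch 1 (top, n = 4) and batch 2 (bottom, n = 3), with the SE as a vertical bar; filled points have an adjusted p under 0.05. Grey boxes span the middle 90% of all genes tested and black lines their median. FKS1 is not drawn. GSC2 lies below the grey box in every strain except AGY1611 of batch 1, where its change was -2.58.

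GSC2, the stress-induced catalytic subunit, was the one member called in the same direction in all 10 comparisons, with sizes that varied between strains. In AGY1611 of batch 1 the 4 generation 0 libraries held 37.6, 63.8, 48.1 and 54.4 CPM (A to D), and the generation 10 libraries 2.96, 6.23, 6.83 and 17.4 CPM. AGY1612 went from 69.6, 69.3, 67.8 and 63.3 CPM to 0, 0.987, 3.98 and 4.66 CPM. The groups did not overlap in either strain, and the fall was smallest in culture D of both. AGY1613 went from 81.2, 73.2, 69.8 and 65.2 CPM to 5.44, 3.30, 3.28 and 4.74 CPM. In AGY1614 the levels were 67.3, 70.1, 61.0 and 59.3 CPM at the start and 1.90, 1.57, 4.44 and 10.5 CPM at generation 10, the last of these from 4 counts. All 16 cultures of batch 1 thus ended lower than they began, with at most 50 counts left in a library. The fitted log2 changes were -2.58 in AGY1611 (SE 0.50, edgeR adjusted p 0.000130), -4.73 in AGY1612 (SE 0.57, 6.23e-08), -4.10 in AGY1613 (SE 0.55, 7.62e-07) and -4.07 in AGY1614 (SE 0.61, 2.00e-06). With the paired cultures summed the call was lost in AGY1611 (adjusted p 0.0620) and held in the other 3 strains (0.00353 to 0.0143).

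In batch 2 GSC2 was close to gone by generation 10. AGY1611 went from 49.7, 55.0 and 50.4 CPM (replicates 1 to 3) to 0.913, 0.652 and 4.06 CPM, and AGY1613 from 68.3, 57.6 and 53.5 to 0, 2.72 and 2.96 CPM. AGY1859 held 183, 374 and 376 counts at generation 0 and 2, 0 and 2 at generation 10. Counts in AGY1862 went from 347, 229 and 391 to 0, 0 and 4, and in AGY1863 from 196, 337 and 308 to 1, 2 and 3. No library of these 5 strains kept more than 5 counts. In AGY1860 a single count was left in 3 libraries, from 810 at generation 0, which is 316-fold lower (exact 95% interval 56.6 to 12496, for counting error only). The fitted changes of the 6 strains ran from -8.05 in AGY1860 to -4.77 in AGY1611, with adjusted p-values from 4.07e-07 to 0.000187.

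GSC2 was lower in 34 of 34 cultures, by per-culture log2 ratios of CPM plus 1 from -6.14 to -1.59. In all culture counts, generations were matched by replicate label, a pairing that held up only in AGY1859, AGY1860 and AGY1863. AGY1611 and AGY1613 were counted in both batches, which are not separate evidence for them. Generation 0 and generation 10 libraries did not overlap in any of the 10 comparisons, where 27.8%, 32.6%, 27.6% and 32.2% of genes were lower without overlap in AGY1611 to AGY1614 of batch 1, and 26.5%, 24.2%, 21%, 27.3%, 25.3% and 25.8% in AGY1611, AGY1613, AGY1859, AGY1860, AGY1862 and AGY1863 of batch 2. Calls as lower in every strain were made for 9.19% of the genes of batch 1 and 3.06% of those of batch 2, and GSC2 was the one member among them in both batches. Its mean change over strains ranked 41 from the lowest of 4615 genes in batch 1 and 18 of 4579 in batch 2. Strains differed less clearly. The fall was greater in AGY1612 than in AGY1611 by 2.15 on the log2 scale (SE 0.71, edgeR adjusted p 0.0282), a call lost with summed cultures (0.448), with library size alone (0.0572), with the replicate block (0.0936), in a fit to those libraries alone (0.0694) and in the fit without AGY1611 replicate D (0.141), AGY1612 replicate A (0.0700) or AGY1612 replicate B (0.0936).

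At generation 5 GSC2 lay below its starting level in all 4 strains sampled, but was called only in AGY1860. AGY1611 went through 10.7, 41.7 and 30.1 CPM in replicates 1 to 3 and AGY1613 through 15.5, 34.3 and 32.9 CPM. AGY1860 was already at 4.29, 2.80 and 0.771 CPM, and AGY1861 was at 33.1, 18.6 and 15.2 CPM, from 70.5, 61.3 and 67.7 at the start. The libraries of generation 5 lay below those of generation 0 in all 4 strains without overlap (18.8%, 19%, 21.5% and 19.8% of genes did so in AGY1611, AGY1613, AGY1860 and AGY1861). Only AGY1860 was called, with a log2 change of -4.48 (SE 0.88, adjusted p 0.000636), and the others were -0.91, -1.11 and -1.63 in AGY1611, AGY1613 and AGY1861 (0.573 to 0.999). It was the 1 member that edgeR called in AGY1860, where 7.32% of all genes were, against 0 of 6 members in AGY1611, AGY1613 and AGY1861. In AGY1860, CHS1, CHS2 and RHO1 also had an unadjusted p under 0.05 (965 of all genes did), and DESeq2 also called CHS1. EdgeR called 0% of all genes at generation 5 in AGY1611 and in AGY1613 (186 and 242 genes at an unadjusted p under 0.05) and 2.58% in AGY1861. No member had an unadjusted p under 0.05 in AGY1611 or AGY1613, and GSC2 and RHO1 did in AGY1861; DESeq2 called 0 of the 6 in these 3 strains. In a fit to the AGY1861 libraries alone GSC2 was called (-1.74, adjusted p 0.0197). Generation 5 and generation 10 share their generation 0 libraries.

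**Figure D3:**
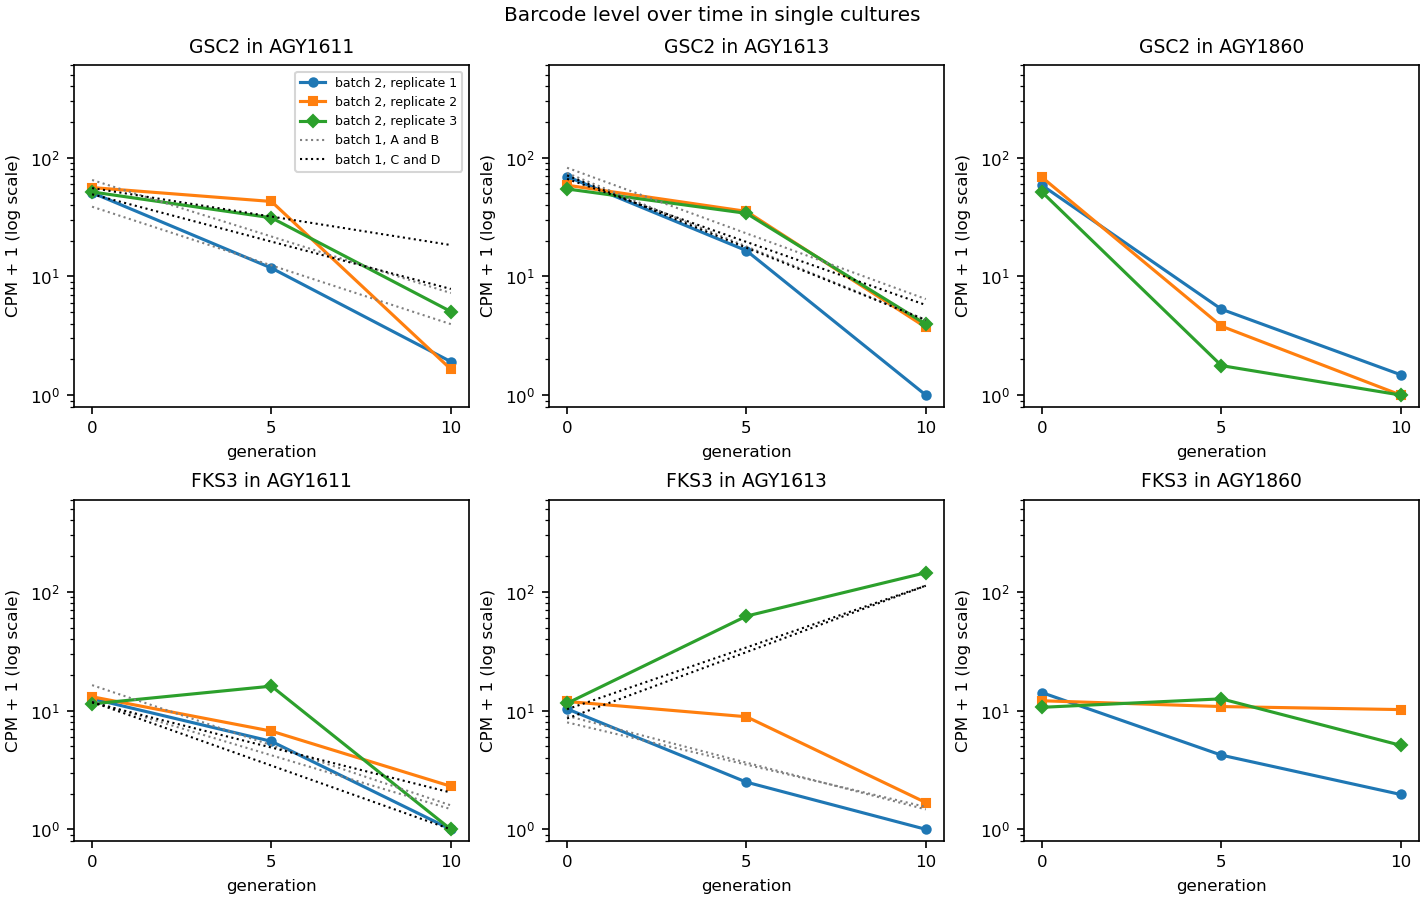
Level of GSC2 (top) and FKS3 (bottom) in single cultures of AGY1611, AGY1613 and AGY1860, in CPM plus 1 on a log axis against generation; solid lines are batch 2 replicates sampled at generations 0, 5 and 10, and dotted lines join the 2 samples of each batch 1 culture (A and B grey, C and D black; AGY1860 was in batch 2 only). GSC2 declines in every culture, and FKS3 in AGY1613 climbs in replicate 3 and in cultures C and D, to 144, 112 and 112 CPM, and declines in the others. Lines join libraries by replicate label, a pairing that held up only in AGY1860 of these strains.

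FKS3, the family member of the spore wall, fell in most cultures and rose in a few. In AGY1611 of batch 1 it went from 15.4, 10.9, 10.8 and 10.7 CPM to 0.592, 0.480, 0 and 1.04 CPM, a log2 change of -4.36 (SE 1.12, adjusted p 0.00219). AGY1614 went from 53, 50, 42 and 66 counts to 0, 1, 0 and 1, which is 17.2-fold lower (exact 95% interval 4.70 to 143, counting error only) with an adjusted p of 0.0163. Both calls were lost with summed cultures (0.101 and 0.120), and that of AGY1614 also without replicate A, B or C (0.0523 to 0.0754). AGY1612 held 0.671, 1.32, 2.49 and 7.98 CPM at generation 10, below its 9.42 to 10.5 CPM at generation 0, and the change of -1.62 was not called (SE 0.90, adjusted p 0.151).

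In AGY1613 FKS3 divided the cultures. Generation 0 levels were even, at 6.96, 8.03, 7.58 and 9.27 CPM. At generation 10 cultures A and B had 1 count each, or 0.544 and 0.471 CPM, while C and D had 204 and 307 counts, or 112 CPM in both. The groups of generation 0 and generation 10 overlapped, because C and D ended above every generation 0 library and A and B below. The fit gave a rise of 2.82 (SE 0.88, adjusted p 0.0114), which was not called with summed cultures (0.240), without replicate C (0.0912) or D (0.0780), with a replicate block (0.68, adjusted p 0.767), or in a fit to the AGY1613 libraries alone (0.134). The division was also present in batch 2, where replicates 2 and 3 are not separate evidence. Replicate 3, which resembled C and D across genes, went from 10.5 to 61.5 to 144 CPM over generations 0, 5 and 10. Replicate 2, which resembled A and B, went from 10.9 to 7.88 to 0.680 CPM, and replicate 1 from 42 to 3 to 0 counts. The batch 2 change of AGY1613 was 2.24 (SE 1.29, adjusted p 0.283), and without replicate 3 it was -4.38 (adjusted p 0.162). The per-culture changes of AGY1613 in batch 1 ran from -2.62 to 3.71.

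FKS3 behaved less uniformly than GSC2 in the other strains of batch 2. AGY1862 had 81, 48 and 82 counts at generation 0 and 1, 0 and 0 at generation 10, 60.4-fold lower (exact 95% interval 10.7 to 2396, counting error only; edgeR adjusted p 0.0224). Without replicate 2 or 3 of AGY1862 this call was lost (0.0999 and 0.108). AGY1611 had 95, 87 and 34 counts and then 0, 2 and 0, 22.3-fold lower (interval 6.11 to 186), which just missed the threshold (adjusted p 0.0506) and passed it under 5 alternatives, DESeq2 among them (0.0260 to 0.0487). The remaining 3 strains held 1 or more cultures near or above the starting level. AGY1859 ended at 0, 6.58 and 11.2 CPM, AGY1860 at 0.965, 9.20 and 4.10 CPM and AGY1863 at 1.64, 0 and 21.6 CPM, from group means of 8.40, 11.3 and 11.5 CPM. Their changes of -0.47, -1.23 and -0.51 were not called (adjusted p 0.567 to 0.872). Over both batches FKS3 was lower in 29 of 34 cultures and higher in 5.

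The strain differences of FKS3 rest on the same cultures. Its change was greater in AGY1613 than in AGY1611 by 7.18 (SE 1.43, adjusted p 0.000683) and than in AGY1612 by 4.43 (SE 1.25, adjusted p 0.0126), and the AGY1614 minus AGY1613 difference was -6.80 (SE 1.61, adjusted p 0.00226). With a replicate block none of the 3 was called (5.14, 2.76 and -4.64; adjusted p 0.109 to 0.406), nor with summed cultures (0.143 to 0.422), and the difference from AGY1612 was lost without AGY1613 replicate C (0.0522).

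FKS1, the catalytic subunit of growing cells, started too rare to be followed in most strains. Generation 0 libraries held 0 to 16 counts. At generation 10 every batch 1 library of AGY1612 had 0 counts, and those of AGY1611 and AGY1613 had 0 or 1. In AGY1614 the generation 10 libraries held 9, 48, 7 and 4 counts, or 17.1, 25.2, 7.77 and 10.5 CPM, against 16, 7, 3 and 2 counts, or 2.88, 1.26, 0.556 and 0.319 CPM, at generation 0. These 4 libraries lay above all others: they were the 4 of 32 above the minimum level for testing, 3.21 CPM, and let the gene into the batch 1 fit. A difference between AGY1614 and the other strains was thus built into the filter, and the fitted rise of 3.61 (SE 0.69) and the differences between AGY1614 and the other 3 strains describe the same 4 libraries. In batch 2 FKS1 did not reach the test. Generation 10 counts there were 0 in all libraries of AGY1611, AGY1859, AGY1860 and AGY1862, and at most 2 in AGY1613 and AGY1863. The mean level at generation 0 in the groups that ended at 0 was below that of 3 counts in a generation 10 library, so no fold is given.

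**Figure D4:**
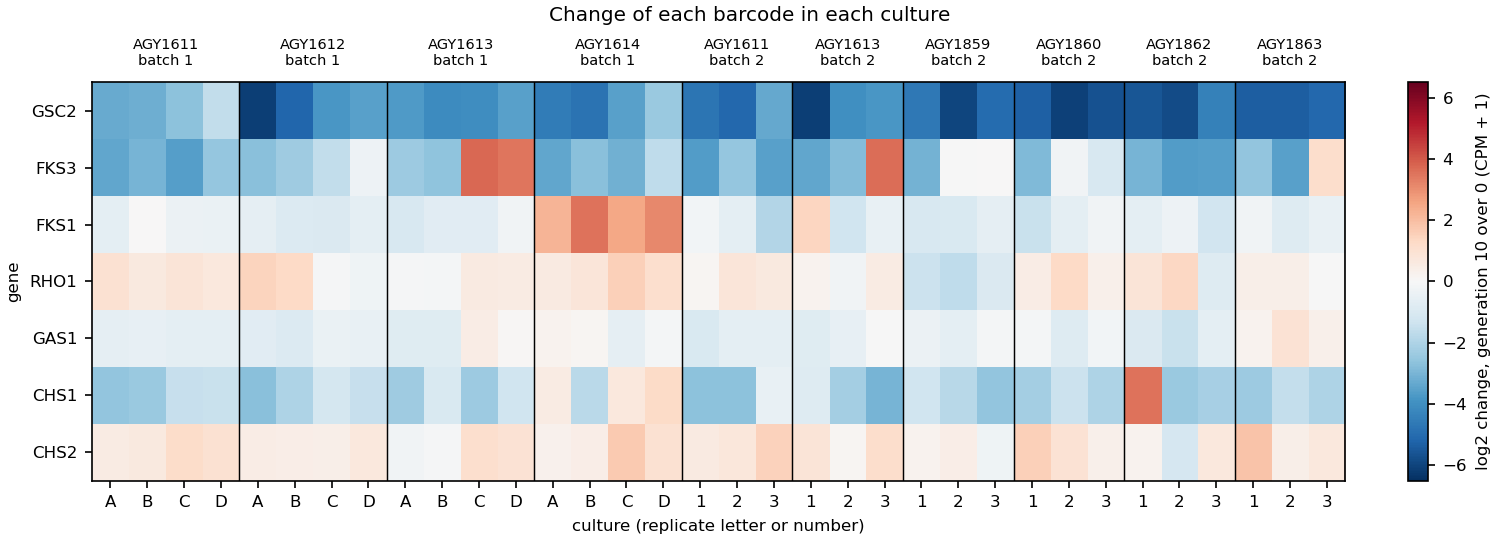
Log2 change from generation 0 to generation 10 (CPM plus 1) of the 7 genes in each of the 34 cultures, grouped by strain and batch; blue is lower and red is higher at generation 10. GSC2 is blue throughout, FKS1 is red in the 4 AGY1614 cultures and in replicate 1 of AGY1613 in batch 2, CHS1 is red in 3 of 4 AGY1614 cultures and in 1 of AGY1862, and FKS3 is red in 5 of the 34.

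RHO1, the GTPase that activates glucan synthase and protein kinase C, was called higher in 3 of the 10 comparisons and lower in 1, and was higher in 24 of 34 cultures. In AGY1611 of batch 1 it went from 172, 210, 205 and 201 CPM to 337, 327, 363 and 324 CPM, and in AGY1614 from 210, 202, 208 and 206 to 316, 348, 615 and 442 CPM. Neither pair of groups overlapped (23.9% and 22.1% of genes were higher without overlap there, 26.4% in AGY1612 and 22.6% in AGY1613). The rises were 0.78 (SE 0.25, adjusted p 0.0120) and 1.06 (SE 0.25, adjusted p 0.000866), and neither was called with summed cultures (0.218 and 0.0508) or with library size in place of TMM scaling (0.0797 and 0.0711). That of AGY1611 was also lost without replicate A (0.0567). AGY1612 was also called (0.80, SE 0.25, adjusted p 0.0104), but its cultures disagreed: A and B ended at 575 and 513 CPM and C and D at 203 and 171 CPM, from 204 to 214 CPM. Without A the adjusted p was 0.157 and without B 0.114, and the call was also lost with summed cultures (0.227), with the replicate block (0.0711) and in a fit to the AGY1612 libraries alone (0.0939). AGY1613 was not called (0.25, adjusted p 0.455), with A and B at 195 and 206 CPM and C and D at 300.0 and 286 CPM.

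In batch 2 RHO1 fell in 1 strain. AGY1859 went from 201, 205 and 200 CPM to 74.9, 65.3 and 104 CPM, without overlap (21% of genes were lower without overlap there). The log2 change in AGY1859 was -1.31 (SE 0.33, adjusted p 0.00377). Its change was lower than in AGY1611 by 1.85 (SE 0.46, edgeR adjusted p 0.0210). This difference was the 1 member called among 6 in AGY1859 minus AGY1611, where 1.73% of all genes were. It was not called in the fit to those libraries alone (adjusted p 0.0542), without AGY1611 replicate 2 or 3 (0.139 and 0.0796) or without AGY1859 replicate 1 or 2 (0.0638 and 0.0767). The other 5 strains had positive values that were not called, from 0.22 in AGY1613 to 0.82 in AGY1860 (adjusted p 0.0575, or 0.0491 with the replicate block, whose pairs held up in this strain). Of these, AGY1611 and AGY1860 were higher without overlap (as were 19.4% and 17.8% of genes), and the groups of the rest overlapped. The cultures of AGY1862 lay far apart, with 370, 489 and 113 CPM at generation 10. Without replicate 3, RHO1 was called higher in AGY1862 (1.09, adjusted p 0.0217).

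GAS1, which extends the glucan chains, had the most abundant barcode of the 7 and was called lower in 4 of the 10 comparisons. In AGY1611 of batch 1 it went from 535 ± 18.3 to 356 ± 21.2 CPM (SD, n = 4) and in AGY1612 from 511 ± 20.8 to 329 ± 34.5 CPM. The log2 changes of -0.59 and -0.63 (edgeR adjusted p 0.0173 and 0.0117) were shared in direction by all 8 cultures. They were lost with summed cultures (0.255 and 0.216), in AGY1611 also without replicate A, C or D (0.0515 to 0.0551) and in AGY1612 without A or B (0.0526 and 0.0754). AGY1613 again split, with A and B at 301 and 251 CPM and C and D at 662 and 562 CPM from 428 to 531 CPM, and was not called (-0.14, adjusted p 0.620). AGY1614 split the other way, with A and B at 599 and 587 CPM and C and D at 356 and 381 CPM (-0.04, adjusted p 0.884). With library size in place of TMM scaling AGY1614 was called lower (-0.58, adjusted p 0.0184). In batch 2 GAS1 fell in AGY1611 from 488, 544 and 523 to 244, 352 and 334 CPM (-0.74, SE 0.22, adjusted p 0.0134) and in AGY1862 from 551, 567 and 535 to 291, 207 and 349 CPM (-0.96, SE 0.22, adjusted p 0.00164). The first call was lost without replicate 1 or 2 (0.0890 and 0.0612), and the second without replicate 2 (0.0547). AGY1863 went the other way without overlap, from 534, 328 and 552 to 634, 618 and 683 CPM. There, 16.3% of genes were higher without overlap, and the GAS1 value of 0.45 was not called (SE 0.22, adjusted p 0.162). The difference between AGY1863 and AGY1611 was 1.19 (SE 0.31, adjusted p 0.0766) and was called with the replicate block (1.25, adjusted p 0.0152).

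CHS1, the repair chitin synthase, fell in 3 strains of batch 1 from a low start. AGY1611 went from 17, 29, 30 and 30 counts to 0, 0, 2 and 2, and AGY1612 from 32, 18, 18 and 25 to 0, 0, 2 and 1. AGY1613 went from 29, 21, 24 and 28 counts to 0, 3, 0 and 2. None of these 12 cultures kept more than 3 counts. The log2 changes were -3.20 (SE 0.80, adjusted p 0.00162), -3.39 (SE 0.84, 0.00144) and -2.66 (SE 0.77, 0.00655), and none was called with summed cultures (0.0950 to 0.209). For AGY1612 the ratio of pooled counts was 11.3-fold lower (exact 95% interval 3.73 to 55.6, counting error only). AGY1614 differed: its generation 10 libraries held 7.61, 0.524, 7.77 and 10.5 CPM against 4.86, 4.15, 4.45 and 3.82 CPM, on 4, 1, 7 and 4 counts, a value of 0.43 that was not called (adjusted p 0.621). The differences of AGY1614 from AGY1611, AGY1612 and AGY1613 were 3.63, 3.82 and 3.10 (adjusted p 0.00968, 0.0190 and 0.0258). None of the 3 was called with summed cultures (0.278 to 0.566) or the replicate block (0.0925 to 0.166), and those from AGY1612 and AGY1613 were each lost in 5 of the 8 fits that left out 1 replicate.

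In batch 2 CHS1 passed the filter on low counts with 15 of 51 libraries above the minimum, 10 of them at generation 0. Every generation 10 library of AGY1859, AGY1860 and AGY1863 had 0 counts. Against a floor of 3 counts per library these falls were at least 1.61-fold, 1.46-fold and 1.75-fold lower. Their adjusted p-values were 0.0479, 0.0383 and 0.0355, and 0.0849, 0.0643 and 0.0594 with the replicate block, whose pairs held up in these 3 strains. Leaving out any 1 of the 3 replicates ended each call (0.0963 to 0.245), and that of AGY1859 was lost in a fit to its own libraries (0.0577). AGY1613 kept 1 count of 78, 15.8-fold lower (exact 95% interval 2.75 to 630), and AGY1611 kept 0, 0 and 5 counts of 44, 38 and 20. Neither was called (adjusted p 0.176 and 0.311). AGY1862 had 1 culture apart: replicate 1 rose from 25 to 101 counts, or from 3.34 to 48.4 CPM, while replicates 2 and 3 went from 18 and 26 counts to 0. Without replicate 1 the fitted change of AGY1862 was -6.59 (adjusted p 0.0439), and with it 2.13 (adjusted p 0.255). At generation 5, AGY1861 held 1, 28 and 16 counts, or 3.68, 30.6 and 6.38 CPM, from 6, 13 and 21 at the start, and AGY1860 had 0 counts in all 3 libraries.

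CHS2, the septum chitin synthase, was called higher in 5 of the 10 comparisons and lower in none. In AGY1611 of batch 1 it went from 175, 147, 149 and 158 CPM to 254, 232, 342 and 316 CPM, a rise of 0.86 (SE 0.24, adjusted p 0.00450). AGY1614 went from 150, 152, 149 and 174 to 181, 205, 490 and 342 CPM, a rise of 0.96 (SE 0.25, adjusted p 0.00170). The groups did not overlap in either strain (23.9% and 22.1% of genes were higher without overlap there, and 26.4% in AGY1612). Neither call held with summed cultures (0.153 and 0.0651), and that of AGY1614 was lost without replicate C (0.0568) and with library size alone (0.140). AGY1612 went from 147 ± 4.17 to 208 ± 13.6 CPM (SD, n = 4), also without overlap and not called (0.50, adjusted p 0.0980). AGY1613 repeated the split of FKS3 and GAS1: A and B ended at 123 and 138 CPM and C and D at 309 and 274 CPM, from 142 to 148 CPM (0.54, adjusted p 0.0760).

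The batch 2 values of CHS2 were of similar size in AGY1611, AGY1613, AGY1860 and AGY1863, and smaller in AGY1859 and AGY1862. It was called in AGY1611, from 148, 136 and 152 to 225, 226 and 432 CPM (1.02, SE 0.35, adjusted p 0.0344). AGY1860 went from 159, 164 and 136 to 459, 320 and 173 CPM (1.06, SE 0.35, adjusted p 0.0250), and AGY1863 from 160, 129 and 141 to 572, 168 and 224 CPM (1.16, SE 0.35, adjusted p 0.0168). In each of these strains every generation 10 library was above every generation 0 library (19.4%, 17.8% and 16.3% of genes did so, and 18.2%, 12.6% and 15% in AGY1613, AGY1859 and AGY1862). The call was lost in AGY1611 without any 1 replicate (0.0548 to 0.321), in AGY1860 without replicate 1 or 2 (0.296 and 0.0859) and in AGY1863 without replicate 1 (0.441). Each was also lost in a fit to the strain's own libraries (0.0704 to 0.130). AGY1613, AGY1859 and AGY1862 had values of 0.77, 0.16 and 0.12 (adjusted p 0.158 to 0.865). CHS2 was higher in 30 of 34 cultures at generation 10 and in 12 of 12 at generation 5, where per-culture log2 ratios ran from 0.18 to 1.18 and no strain was called (edgeR adjusted p 0.130 to 0.999). All 4 strains were higher there without overlap, as were 17.3%, 17.4%, 17.6% and 18.3% of genes in AGY1611, AGY1613, AGY1860 and AGY1861. These culture counts and overlaps hold for TMM-scaled CPM. With library size alone the fitted generation 5 change of CHS2 in AGY1861 turned negative. The mean change of CHS2 over strains stood at the 90.1 percentile of genes in batch 1 and the 95.8 percentile in batch 2.

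The strain differences of the members were read against the rest of the pool. In batch 1, leaving out FKS1, 1 of 6 members was called in AGY1612 minus AGY1611 (23.7% of all genes), AGY1613 minus AGY1611 (20%), AGY1613 minus AGY1612 (19%), AGY1614 minus AGY1611 (30%) and AGY1614 minus AGY1612 (12.5%), and 2 in AGY1614 minus AGY1613 (26.9%). The members' shares lay on both sides of those of all genes. In batch 2, edgeR called 0 of 6 for AGY1613, AGY1860, AGY1862 and AGY1863 minus AGY1611 (0.371%, 0.349%, 0.24% and 0.393% of all genes). In each of these 4, 1 member had an unadjusted p under 0.05: FKS3, GSC2, CHS1 and GAS1 in that order. DESeq2 called CHS1 in AGY1860 minus AGY1611, and CHS1 and GAS1 in AGY1863 minus AGY1611. All batch 2 differences share the AGY1611 libraries.

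The members were also set beside 49 other genes of glucan and chitin synthesis and remodelling, of which 45 had an entry in the tables and 43 were tested. At generation 10 of batch 1, these 43 genes gave 39 lower and 43 higher calls in 172 gene and strain pairs, and in batch 2 30 lower and 18 higher in 258. Taken over all strains, these counts lie near the shares over all genes. Those shares were 21.3% to 28.3% lower and 17.1% to 24.8% higher per strain of batch 1, and 7.01% to 14.7% lower and 4.04% to 7.62% higher in batch 2. With summed cultures the 82 calls of batch 1 became 32. Per strain, 8 to 11 of the 43 were lower and 8 to 17 higher in batch 1, and 3 to 7 lower and 2 to 5 higher in batch 2. The 17 were in AGY1614, a larger share than the 24.8% of all genes called higher there. The 7 tested regulators of Rho1 (exchange factors, GTPase activators and related genes) had 3, 3, 2 and 4 lower calls in AGY1611, AGY1612, AGY1613 and AGY1614 and 1 higher call, in AGY1614. In batch 2 they had 1, 0, 0, 1, 1 and 3 lower calls in AGY1611, AGY1613, AGY1859, AGY1860, AGY1862 and AGY1863, and none higher. The 9 genes of chitin synthase traffic and activation had 3, 4, 4 and 5 higher and 2, 1, 2 and 1 lower calls in the strains of batch 1, and 2, 2, 2, 1, 2 and 1 higher against 1, 0, 1, 1, 1 and 1 lower in those of batch 2. The 11 genes of glucan remodelling had 4, 4, 2 and 3 lower and 2, 1, 2 and 4 higher in batch 1, and 2, 2, 1, 2, 2 and 1 lower and 1, 0, 2, 1, 1 and 1 higher in batch 2. Lists this short differ from the all-gene shares by few genes, and nothing is read from them.

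Of the 43 genes, 3 were called lower and 3 higher in every strain of batch 1, where 9.19% and 4.4% of all genes were, and 2 were called lower in every strain of batch 2, where 3.06% were. SPR1, a glucanase of sporulation, fell in all 4 strains of batch 1 (mean -3.11, from -3.59 to -2.82) and all 6 of batch 2 (mean -3.06, from -3.64 to -2.16; largest edgeR adjusted p 8.00e-05). ROM1, an exchange factor for Rho1, fell in all 4 strains of batch 1 (mean -3.01, largest adjusted p 0.000174) and in 3 of 6 in batch 2. With summed cultures SPR1 was called in all 4 strains and ROM1 in 2 of them. Calls as higher in all 4 strains of batch 1 went to SHC1 (mean 0.58), which activates chitin synthase during sporulation, EXG1 (0.55), the major exoglucanase, and KEG1 (0.38), needed for the other type of β-glucan. None of these 3 was called in every strain of batch 2 (2, 3 and 0 of 6 strains), and with summed cultures SHC1 was called in 1 of the 4 strains of batch 1 (adjusted p 0.0320 to 0.359) and EXG1 and KEG1 in none (0.0836 to 0.431). BCH1, lower in all 4 strains of batch 1, and SKN1, lower in all 6 of batch 2, started at fewer than 50 counts and are named because they complete these short lists, after their values were seen.

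The members did not move as a unit. Over the 34 cultures with both generations, Pearson correlations between the changes of any pair of members ran from -0.20 (FKS3 with CHS1) to 0.41 (FKS3 with GAS1, neighbours on the chromosome but on separate plasmids). These cultures share strains and transformations, so the values are descriptions. Among 4317 genes with at least 50 counts at generation 0, the one with the most similar changes was DEG1 for GSC2 (r = 0.78), SPS1 for FKS3 (0.77), SIM1 for RHO1 (0.73), YDR124W for CHS2 (0.68), YEA6 for GAS1 (0.68), SLA2 for CHS1 (0.60) and YHB1 for FKS1 (0.86). Each r is the highest of all genes compared, so a high value is built into the choice. FKS1 had 0 counts in 9 of 16 generation 10 libraries of batch 1 and in 16 of 18 of batch 2.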

How the data were processed

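The 2 tables, 1 per batch, hold raw barcode counts per gene plasmid as deposited: whole numbers with a different total in each library. Plasmids were recovered from the cells and their barcodes amplified by PCR, per the labels' protocols. How reads were matched to barcodes is not given in the sources used here. The empty-vector entry (at most 0.0506% of a library) was left out of scaling and tests. Each batch was fitted alone with edgeR 4.0.16 (R 4.3.3; limma 3.58.1): TMM scaling, filterByExpr (minimum count 10), a separate coefficient for each strain at each generation, quasi-likelihood tests, Benjamini-Hochberg adjustment over all genes tested, threshold 0.05. CPM are TMM-scaled, and per-culture changes use a pseudocount of 1 CPM. Count intervals are exact 95% intervals, and floors are 3 counts per library. Both cover counting error only, since the labels describe no molecular identifiers and amplified copies are counted again. The code was tested on simulated data.

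The replicate numbers were taken to pair libraries across generations where the deviations of every own-numbered pair correlated above 0.1. This held in AGY1859 (0.206 to 0.536), AGY1860 (0.173 to 0.304) and AGY1863 (0.218 to 0.416), and not in the other strains, so the block stayed an alternative. The other alternatives were DESeq2 1.42.0, its size factors, library size alone, no filter, a mean of at least 50 counts at generation 0, the libraries of a comparison alone, leaving out each replicate, and summing cultures A with B and C with D. The genes, the lists of other wall genes and the tests were chosen with earlier results of these data known. All members with an entry were described. Other wall genes were named where they were called the same way in every strain of a batch and had a mean of at least 50 counts at generation 0, and BCH1 and SKN1, below that mean, were added after their values were seen.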

Additional observations from a re-analysis of the deposited data

Results flagged for a closer look

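The change over 10 generations was called different between strains in 7 of 36 tests of batch 1 and 1 of 30 of batch 2. FKS1 gave 3 more calls, which the filter on low counts had decided. Per comparison, 12.5% to 30% of all genes were called in batch 1 and 0.24% to 1.73% in batch 2. In batch 1 the GSC2 change was -2.15 in AGY1612 minus AGY1611. The FKS3 change was 7.18 in AGY1613 minus AGY1611, 4.43 in AGY1613 minus AGY1612 and -6.80 in AGY1614 minus AGY1613. CHS1 differed by 3.63 in AGY1614 minus AGY1611, 3.82 in AGY1614 minus AGY1612 and 3.10 in AGY1614 minus AGY1613. For FKS1 the fitted differences were 5.31, 8.20 and 5.51 in the same 3 comparisons. It entered the test only through the generation 10 libraries of AGY1614, so these values describe those libraries and support nothing. In batch 2 the RHO1 change was -1.85 in AGY1859 minus AGY1611. That call was lost in the fit to those libraries alone. It was also lost without AGY1611 replicate 2 or 3 or AGY1859 replicate 1 or 2 (edgeR adjusted p 0.0638 to 0.139). Of the 7 batch 1 differences of the other genes, none was called when cultures A and B, and C and D, were summed. Summing left 3 to 110 of all 4615 genes called per comparison, against 578 to 1383 without it. The loss is therefore not particular to these genes. None was called with the replicate block either, but its pairs did not hold up in the batch 1 strains. In batch 1, no outlying culture was found in the 28 groups of 4 tested for one, but groups of 4 can hardly show one. The smaller groups of batch 2 were not tested. Among them are CHS1 in AGY1862 and FKS3 in AGY1613, where 1 culture stood far above the others.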

How the results depend on the processing

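At generation 10 of batch 1 edgeR called 17 of 24 gene and strain pairs without FKS1 (19 of 28 with it), 3 with paired cultures summed (4 with FKS1), all 3 of them GSC2, and 16 to 20 of the 28 on leaving out 1 replicate. Summing was run in batch 1 only, and called 3 to 110 of all 4615 genes per strain difference. In batch 2 it called 16 of 36, and 14 to 17 on leaving out 1. At generation 5 it called 1 (1 in every leave-one-out fit), 2 with library size alone, 3 with the comparison's libraries alone and 2 with DESeq2. Batch 1 strain differences, 10 with FKS1 and 7 without, went to 4 with at least 50 counts at generation 0, which drops FKS1 and CHS1, to 3 with the replicate block, all of FKS1, to 0 with summed cultures (7 of 42 at an unadjusted p under 0.05), and to 8 to 10 on leaving out 1. Batch 2 differences went from 1 to 2 with the replicate block, 0 with the comparison's libraries alone (5 of 30 unadjusted), 5 with DESeq2, and 0 to 1 on leaving out 1. The 82 calls of other wall genes in batch 1 fell to 32 with summed cultures, and ran from 75 to 83 on leaving out 1 replicate; in batch 2 the 48 ran from 43 to 48.

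Directions turned for values that were not called. With library size alone, CHS1 in AGY1614 of batch 1 became -0.042, and at generation 5 in AGY1861 CHS2 became -0.50, GAS1 -0.48 and RHO1 -0.13. With the replicate block, FKS3 in AGY1613 of batch 2 became -1.18 at generation 10 and -0.95 at generation 5, and in AGY1862 CHS2 became -0.0097 and CHS1 -1.49. On leaving out 1 replicate, GAS1 ran from -0.41 to 0.044 in AGY1613 and from -0.15 to 0.11 in AGY1614 of batch 1. In batch 2 FKS3 ran from -4.38 to 2.86 in AGY1613 (-1.09 to 1.69 at generation 5), from -1.02 to 0.0077 in AGY1859, from -3.99 to 0.16 in AGY1863 and from -0.85 to 0.040 in AGY1860 at generation 5. CHS2 ran from -0.0095 to 0.34 in AGY1859 and from -0.26 to 0.48 in AGY1862, and CHS1 from -6.59 to 2.80 in AGY1862. Library size alone leaves out the TMM scaling. That scaling set the totals of the AGY1861 generation 5 libraries at 271533, 913653 and 2507898, from gene totals of 474208, 1906404 and 3622744. The cause of the turns in direction was not tested. Without a filter, all 99 single results kept their direction and their side of the threshold, and with DESeq2's size factors 98 did. The fall of GSC2 at generation 10 was called under every alternative run for it in the 10 comparisons, except in AGY1611 of batch 1 with summed cultures, which were not run in batch 2. Low counts limit FKS1, CHS1 and FKS3, and the design text does not say which cultures share a transformation.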
